A study of Homo sapiens with 12 samples.

Results

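Polysome-associated mRNAs of 34 translation factors were followed in 3 established triple-negative breast cancer (TNBC) cell lines in which TRMT112, an activating partner of several methyltransferases, had been depleted or added. The 34 genes were taken from a fixed list of symbols and comprise 19 initiation factors (13 of them subunits of eIF3), 8 elongation factors, 5 termination and recycling factors and 2 poly(A)-binding proteins. All 34 were among the 24559 gene symbols of the count table, and all 34 passed the filter on low counts that left 16538 genes for testing. The least abundant of them averaged 574.8 counts per library.

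The study asked how TRMT112 changes the set of mRNAs on polysomes. The 6 groups held 2 libraries each: MDA-MB-231 EV CTRL and TRMT112 KD, SUM159 EV CTRL and TRMT112 KD, and BT549 EV CTRL and TRMT112 OE (EV, KD and OE below). By the study's methods, KD cells received an shRNA against TRMT112 in a GIPZ vector and their controls, labelled EV, a non-silencing shRNA in the same vector, whereas OE cells received a TRMT112 open reading frame and their controls the empty vector. Transfected cells were selected with puromycin for knockdown and with G418 for overexpression. Before lysis for the polysome gradients, cells were briefly treated with cycloheximide to hold ribosomes on mRNA. No other treatment is named for these libraries, and the sources do not say whether lines were clones. The lines grew in different media, SUM159 with insulin and hydrocortisone and BT549 in RPMI. Replicates are separate libraries that the labels do not tie to separate cultures, so the p-values measure the spread between these libraries, which may be technical. No libraries of total RNA were analysed here. Ribosome loading of an mRNA and its amount cannot be told apart, nor can fewer cells carrying it and less of it per cell. All changes below are relative to the other polysomal RNA of the same libraries. The paper reports smaller polysome peaks in the KD cells and larger ones in the OE cells. A rise or fall here therefore need not be one in the amount on polysomes per cell.

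Protein synthesis proceeds in stages that these factors divide between them. In initiation, eIF3 binds the small ribosomal subunit and helps to load mRNA, eIF1 and eIF1A guide scanning and start codon choice, eIF5 triggers GTP hydrolysis by eIF2, eIF5B joins the large subunit, and eIF6 keeps free large subunits from joining too early. In elongation, eEF1A delivers aminoacyl-tRNA and is recharged by the eEF1B proteins, eEF2 moves the ribosome along, eEF2 kinase restrains eEF2, and eIF5A relieves stalls. In termination, eRF1 (ETF1) reads the stop codon together with the GTPase eRF3 (GSPT1), after which ABCE1 splits the ribosome and DENR with MCTS1 clears the small subunit. ETF1 is itself linked to TRMT112, since the enzyme that methylates eRF1, N6AMT1, needs TRMT112 as its partner. Many mRNAs of this machinery are 5′TOP mRNAs, which start with a C followed by a run of pyrimidines and whose translation is regulated by mTOR and LARP1.

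The start of the transcript is shown because 5′TOP mRNAs are defined by it. Windows of 30 bases, 10 before and 20 from the start annotated by RefSeq (GRCh38.p14), were read on the strand of the gene, 5′ to 3′. A run was counted where a C at the start opened an unbroken stretch of at least 5 C or T. An entry existed for 25 of the 34 genes; EIF3A, EIF3E, EIF3G, EIF3H, EIF3L, EEF1A2, EEF1D, PABPC1 and PABPC4 had none. A run stood at the annotated start of 7 of the 25 genes, or 28%, compared with 5.14% of all 27305 symbols with an entry and 75% of 64 cytosolic ribosomal protein genes. Capitals mark the run in these 7:
EEF1A1, chr6:73521013-73521042, minus strand: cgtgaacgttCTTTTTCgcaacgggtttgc
EEF1B2, chr2:206159885-206159914, plus strand: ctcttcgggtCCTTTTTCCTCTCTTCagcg
EEF2, chr19:3985444-3985473, minus strand: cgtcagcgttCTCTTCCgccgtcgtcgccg
EIF3D, chr22:36529147-36529176, minus strand: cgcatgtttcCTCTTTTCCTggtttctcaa
EIF3F, chr11:7987327-7987356, plus strand: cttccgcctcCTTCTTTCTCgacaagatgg
EIF3K, chr19:38619178-38619207, plus strand: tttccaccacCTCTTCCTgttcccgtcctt
EIF3M, chr11:32583821-32583850, plus strand: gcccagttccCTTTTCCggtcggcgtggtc

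The run was found at the start of 3 of 6 elongation genes and 4 of 14 initiation genes with an entry, and of 0 of the 5 termination and recycling genes. ETF1 and GSPT1 each have a further entry, also without a run, and EEF1B2 has a further one without it. The starts of the 5 are given for comparison, with no capitals since they hold no run:
ETF1, chr5:138543217-138543246, minus strand: aggaagtgatgtcacaggccccatgtgagc
GSPT1, chr16:11915937-11915966, minus strand: gaggagatccgctcacacacacgaggagga
ABCE1, chr4:145098301-145098330, plus strand: gcggctgggcaccgccattttggccggtgg
DENR, chr12:122752814-122752843, plus strand: aaggctcattgtctcgcgggagcgctgctg
MCTS1, chrX:120604689-120604718, plus strand: agcaagcggcctgtcatgcctattgcctag
No match says only that these letters are not at the annotated start.

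The libraries held between 22954226 and 27434677 expected counts, and the median absolute log2 difference between the replicates of a group was between 0.08 and 0.10 over all genes and at most 0.04 over the 34. TRMT112 followed the labels, with log2 fold changes of -1.23 in MDA-MB-231 KD, -0.76 in SUM159 KD and 0.48 in BT549 OE. Of the markers of a TNBC line, PGR was at at most 0.19 TPM (a level scaled by transcript length and library size) in every group. ERBB2 lay between 27.3 and 54.4 TPM. ESR1 was not among the gene symbols of the count table, so its level is not known. VIM and CD44, mesenchymal markers, were abundant in every group. KRT8 and KRT18, epithelial keratins, lay between 207 and 559 TPM in MDA-MB-231 and SUM159 and between 0.26 and 0.55 in BT549, whereas EPCAM, CDH1 and KRT19 did not exceed 3.94 TPM in any group. The leukocyte markers PTPRC and LYZ reached at most 0.24 TPM, and CD3E, like ESR1, was not among the symbols. In BT549 OE, 4 of the 5 stromal markers were above EV: COL1A1 at 625 TPM against 25.6, COL3A1 at 154 against 0.29, DCN at 7.59 against 0 and LUM at 1.99 against 0. PDGFRB was at 0.22 against 0.21, and VIM at 597 against 1665. Their part in the BT549 results below was not tested.

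The 34 mRNAs took 2.11% of all counts in MDA-MB-231 EV and 1.96% in KD, 1.81% in SUM159 EV and 1.46% in KD, and 1.14% in BT549 EV and 1.81% in OE. No library of a KD or OE group overlapped its control. Per length, EEF1A1 and EIF5A were the most abundant in every group. EEF1A1, which carries aminoacyl-tRNA to the ribosome, stood at 7012 ± 35.3 TPM (SD, n = 2) in MDA-MB-231 EV, 4576 ± 30.1 in SUM159 EV and 2018 ± 11.8 in BT549 EV. EIF5A was at 4714 ± 126, 3341 ± 10.6 and 2743 ± 21.9 TPM in the same groups, so that it ranked below EEF1A1 in MDA-MB-231 and SUM159 and above it in BT549. This order depends on the transcripts counted. With protein-coding transcripts alone, EIF5A was above EEF1A1 in MDA-MB-231 EV (5211 against 5052 TPM) and SUM159 EV (3692 against 3289) as well. EEF1G, a subunit of the eEF1 exchange complex, came next in all 6 groups (2315 ± 7.89 TPM in MDA-MB-231 EV, for instance), and EEF2K was the lowest of the 34, or in BT549 EV the next to lowest, with at most 8.18 ± 0.36 TPM in SUM159 EV. In the EV libraries the release factor ETF1 exceeded its partner GSPT1 by 2.28 ± 0.20 times in MDA-MB-231, 1.51 ± 0.03 in SUM159 and 5.04 ± 0.21 in BT549, and DENR exceeded MCTS1 by 6.27 ± 0.44, 6.55 ± 0.54 and 3.61 ± 0.13 times.

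The 13 eIF3 subunits, which occur together in the complex, were not equally abundant as polysomal mRNAs. The most abundant subunit exceeded the least abundant 7.73 ± 0.47 times in MDA-MB-231 EV, 9.64 ± 0.03 times in SUM159 EV and 54.7 ± 0.63 times in BT549 EV. With all transcripts counted, EIF3A, which encodes the large scaffold subunit, was the lowest in all 6 groups, at 80.3 ± 4.57 TPM in MDA-MB-231 EV, 69.3 ± 0.81 in SUM159 EV and 15.4 ± 0.48 in BT549 EV. With protein-coding transcripts alone, EIF3L was below EIF3A in MDA-MB-231 EV (49.1 against 88.7 TPM) and KD (46.8 against 78.1). The same held in SUM159 EV (42.4 against 76.6) and KD (32.1 against 40.2), while EIF3A remained the lowest in BT549. The ratios of highest over lowest subunit therefore depend on the transcripts counted. EIF3G, EIF3I and EIF3K were among the 4 highest in each group. Summed over the 13, the level was 4554 ± 43.5 TPM in MDA-MB-231 EV and 4560 ± 21.4 in KD, 3671 ± 23 in SUM159 EV and 2660 ± 3.61 in KD, and 3412 ± 6.25 in BT549 EV and 4688 ± 1.16 in OE.

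**Figure D1:**
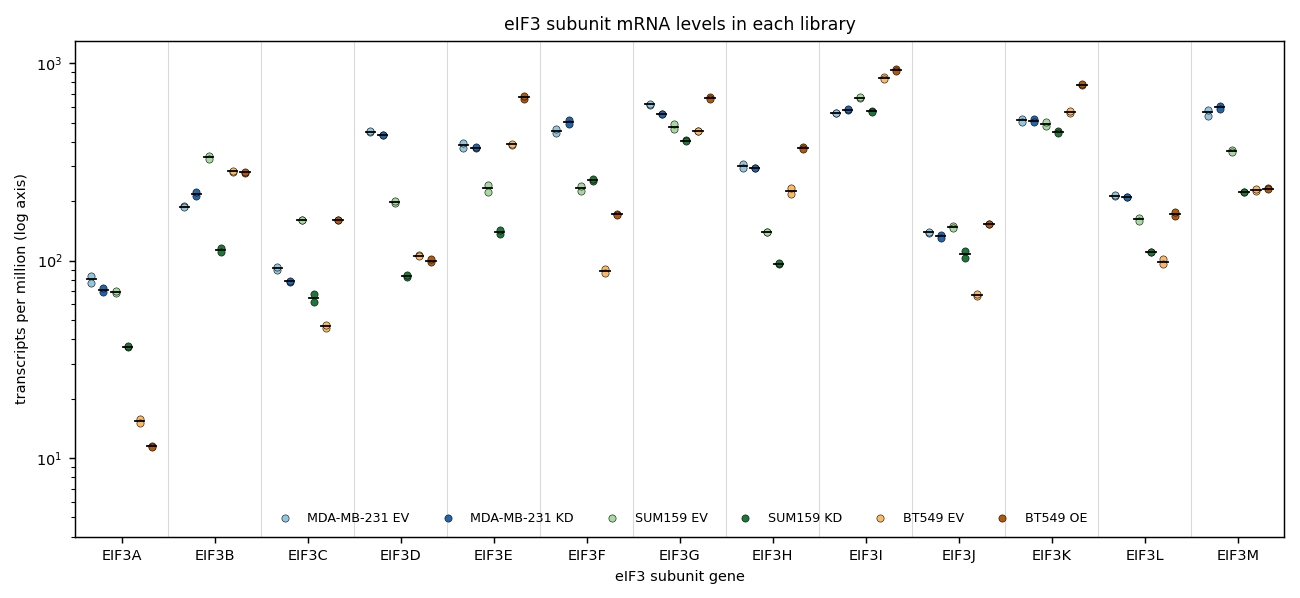
Level of each eIF3 subunit mRNA in TPM, on a log axis; each point is 1 library, colours are the 6 groups and black ticks are group means. With all transcripts counted, EIF3A is the lowest subunit in every group and falls to 11.5 TPM in BT549 OE, while EIF3I reaches 922 TPM there.

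Between the control libraries of the 3 lines most of the 34 genes differed, as did most genes. The shares of all genes called, here and below, were not matched for abundance. They include genes with far fewer counts than the 34, for which small changes are harder to call. In SUM159 16 were higher and 14 lower than in MDA-MB-231 (75.7% of all genes tested were called, 39.2% higher and 36.4% lower). In BT549 11 were higher and 20 lower than in MDA-MB-231 (79.5% called, 39.1% higher and 40.4% lower), and 8 higher and 23 lower than in SUM159 (78.4% called, 37.7% higher and 40.7% lower). A log2 fold change of at least 1 was reached by 5 of the 34 in the former contrast (36.9% of all genes), 8 between BT549 and MDA-MB-231 (45.4%) and 10 between BT549 and SUM159 (43.7%). These contrasts use the same EV libraries as the KD and OE contrasts below. The BT549 controls also differ from those of the other lines in construct, selection drug and medium, which cannot be told apart from the line. EIF3A was lower in BT549 than in MDA-MB-231 by a log2 fold change of -1.99 (SE 0.04, adjusted p = 9.25e-22, edgeR quasi-likelihood test), and lower than in SUM159 by -1.97 (SE 0.04). Its counts, scaled to a common library size (normalized counts), were 1607 and 1526 in BT549 EV, 6465 and 5958 in MDA-MB-231 EV and 6057 and 6233 in SUM159 EV, so BT549 lay apart and the other two lines overlapped. EIF3F, another eIF3 subunit, was also lower in BT549 than in MDA-MB-231 (1993 and 1931 against 6978 and 7221 counts, log2 fold change -1.86, SE 0.04), and EIF5B was lower than in SUM159 at -1.79 (SE 0.06). EIF1AX, the scanning factor eIF1A, was higher than in MDA-MB-231 in both SUM159 (1.41, SE 0.04) and BT549 (1.43, SE 0.04). EIF3D (-0.99), EIF3H (-0.93) and EEF1D (-0.77) were the genes furthest below MDA-MB-231 in SUM159, where EEF1A2 (1.91, SE 0.08) and EEF2K (1.20, SE 0.08) were among the furthest above. EIF3D had 9617 and 9646 counts in MDA-MB-231 EV and 4772 and 4950 in SUM159 EV, and EIF3H 7137 and 7111 against 3782 and 3690, with no overlap for either. EEF1A2 was the gene furthest below in BT549, with 7 and 2 raw counts there and fitted values of -6.40 against MDA-MB-231 and -8.31 against SUM159, which depend on the prior count at such low levels. BT549 exceeded MDA-MB-231 in EIF3B (1.00) and EIF3I (0.98), and exceeded SUM159 in EEF1D (0.96), EIF3H (0.88) and EIF3E (0.85). Scaling by library size alone moved the median of all genes by -0.31 between BT549 and MDA-MB-231 and at -0.21 between BT549 and SUM159, and lowered the count of the 34 that were higher in BT549 than in MDA-MB-231 from 11 to 7.

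In MDA-MB-231 KD, 12 of the 34 mRNAs rose, 8 fell and 14 did not pass the test (37.7% of all genes tested were called, 21.2% higher and 16.5% lower); the median of the 34 was 0.03 on the log2 scale, with 0.00 for all genes. In SUM159 KD 26 fell and 6 rose, against a background of 60.1% called, 31.4% lower and 28.6% higher, and the median was -0.29 compared with 0.00. In BT549 OE 27 rose and 4 fell (70.6% of genes called, 35.6% higher and 35.0% lower), with a median of 0.56 compared with 0.02 for all genes. A log2 fold change of at least 1 in either direction was reached by 0 of the 34 in MDA-MB-231 KD (3.2% of all genes), 5 in SUM159 KD (15.7%) and 6 in BT549 OE (31.3%).

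**Figure D2:**
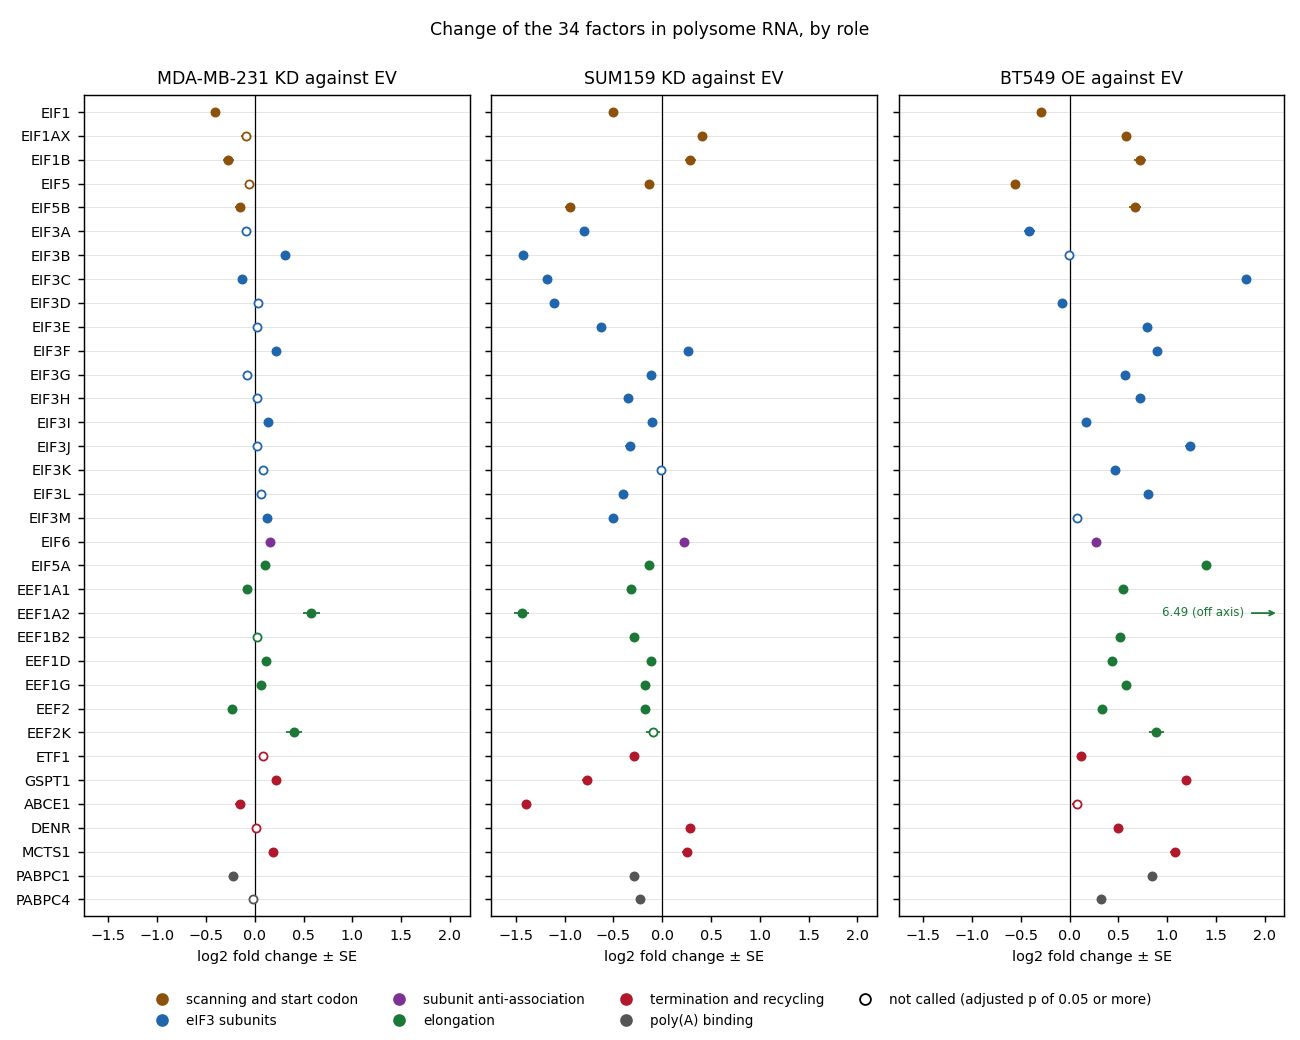
Log2 fold change with its standard error for each of the 34 genes in the 3 comparisons, coloured by role; filled points passed an adjusted p of 0.05 (edgeR), open points did not, and EEF1A2 in BT549 OE, at 6.49, lies off the axis. Most points are within 0.5 of 0 in MDA-MB-231 KD, left of 0 in SUM159 KD and right of 0 in BT549 OE.

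By class, the medians of initiation, elongation and termination factors had the same sign in each comparison. In MDA-MB-231 KD, where scaling by library size alone turned all 3 below 0, they were 0.02 (5 of 19 rose and 4 fell), 0.08 (5 of 8 rose and 2 fell) and 0.09 (2 of 5 rose and 1 fell). In SUM159 KD they were -0.35 (4 rose and 14 fell), -0.17 (0 rose and 7 fell) and -0.28 (2 rose and 3 fell), and in BT549 OE 0.56 (13 rose and 4 fell), 0.57 (8 rose and 0 fell) and 0.50 (4 rose and 0 fell). In SUM159 KD, initiation factors ran from -1.43 to 0.41 and termination factors from -1.39 to 0.28. Of these 3 classes, elongation factors were the one without a member called in the opposite direction in SUM159 KD and BT549 OE. The shares of all genes called in each comparison are those given above. No test between classes was made.

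**Figure D3:**
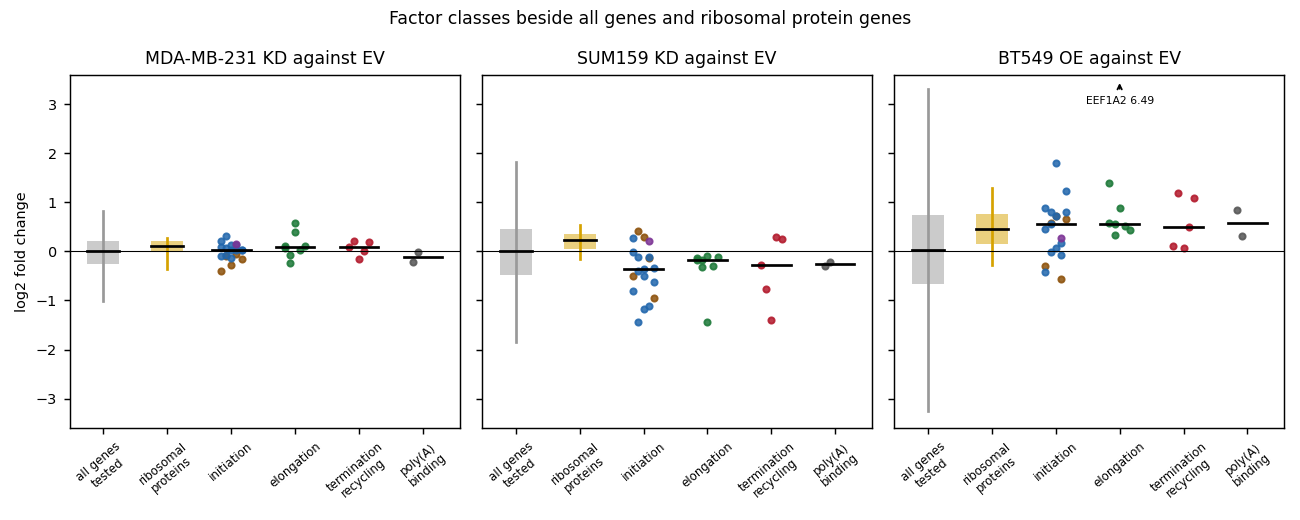
Log2 fold changes of the factors by class beside all genes tested and 80 cytosolic ribosomal protein genes in each comparison; points are genes, black ticks medians, boxes the middle 50% and lines the 5th to 95th percentile. In SUM159 KD the factor medians (-0.35, -0.17 and -0.28) lie below 0 and the ribosomal protein median (0.24) above it.

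Among the scanning and start codon factors, EIF1 was the one mRNA of the 34 that fell in all 3 comparisons (2.94% of all genes did). Its normalized counts in MDA-MB-231 were 13795 and 13960 in EV and 10448 and 10547 in KD, in SUM159 16231 and 16884 in EV and 11573 and 11751 in KD, and in BT549 9161 and 8986 in EV and 7490 and 7292 in OE. The groups did not overlap in any line, and the log2 fold changes were -0.40 (SE 0.03, adjusted p = 9.29e-11), -0.51 (SE 0.03, adjusted p = 1.53e-13) and -0.30 (SE 0.03, adjusted p = 3.81e-09). EIF1B, a close paralogue of EIF1, did otherwise. Its counts went from 1436 and 1369 to 1186 and 1139 in MDA-MB-231 KD, from 1264 and 1308 to 1544 and 1592 in SUM159 KD, and from 800 and 912 to 1440 and 1387 in BT549 OE. It fell in the former (-0.27, SE 0.06, adjusted p = 0.000591) and rose in SUM159 KD (0.29, SE 0.06, adjusted p = 0.000113) and BT549 OE (0.72, SE 0.06, adjusted p = 3.11e-10). Per length, EIF1 exceeded EIF1B 11.2 ± 0.28 times in SUM159 EV and 6.68 ± 0.10 times in KD, and 9.08 ± 1.06 times in BT549 EV and 4.58 ± 0.03 times in OE.

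EIF1AX had 6379 and 6254 normalized counts in SUM159 EV and 8038 and 8702 in KD. Both KD libraries exceeded both EV libraries, and the rise of 0.41 (SE 0.04, adjusted p = 6.14e-09) was the largest of the 34 there; BT549 OE gave 0.57 (SE 0.04), and MDA-MB-231 KD -0.09 (SE 0.05, adjusted p = 0.141). EIF5, the GTPase-activating protein of eIF2, fell most of the 34 in BT549 OE, from 6220 and 6477 to 4132 and 4475 counts (-0.56, SE 0.04, adjusted p = 2.39e-12). In SUM159 KD it was at -0.14 (SE 0.03, adjusted p = 0.00132), a fall that turned to 0.07 (adjusted p = 0.51) when only its main transcript was counted. EIF5B, the subunit-joining GTPase, fell in both KD lines, at -0.16 (SE 0.05, adjusted p = 0.0197) in MDA-MB-231 and -0.94 (SE 0.05, adjusted p = 1.22e-13) in SUM159, and rose by 0.67 (SE 0.06) in BT549 OE. The MDA-MB-231 call was lost under 5 alternatives, with adjusted p between 0.0531 and 0.211, among them leaving out EV replicate 1 or KD replicate 1. EIF6, the anti-association factor, rose in all 3, by 0.16, 0.22 and 0.27 (SE 0.03 each).

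Of the 13 eIF3 subunits, 11 fell in SUM159 KD, 1 rose and 1 was not called, while 4 rose and 1 fell in MDA-MB-231 KD and 9 rose and 2 fell in BT549 OE. Of all genes tested, 31.4% fell and 28.6% rose in SUM159 KD. The shares were 21.2% higher and 16.5% lower in MDA-MB-231 KD, and 35.6% higher and 35.0% lower in BT549 OE. EIF3B, a core subunit around which the module with EIF3G and EIF3I is built, went in opposite directions in the KD lines. Its normalized counts were 13370 and 13128 in SUM159 EV and 5065 and 4766 in KD, but 6579 and 6368 in MDA-MB-231 EV and 7925 and 8111 in KD. Neither line had overlapping groups. It fell by 1.43 (SE 0.03, adjusted p = 1.09e-20) in SUM159 and rose by 0.31 (SE 0.03, adjusted p = 3.75e-08) in MDA-MB-231, and in BT549 OE, with 12932 and 12827 counts against 12966 and 12926 in EV, it did not pass the test (-0.01, SE 0.03, adjusted p = 0.837).

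EIF3C, the other large core subunit besides EIF3A, had 6217 and 6274 counts in SUM159 EV and 2632 and 2870 in KD, a fall of -1.18 (SE 0.04, adjusted p = 7.99e-18). In BT549 its counts were 2058 and 2089 in EV and 7323 and 7152 in OE, so that all OE values were more than 3 times the EV values (log2 fold change 1.80, SE 0.04, adjusted p = 2.03e-21). In MDA-MB-231 KD it was at -0.13 (SE 0.04, adjusted p = 0.0123), a call lost with the main transcript alone (adjusted p = 0.451) and without EV replicate 2 (adjusted p = 0.121), KD replicate 1 (adjusted p = 0.0848) or KD replicate 2 (adjusted p = 0.0527). EIF3C has a near-identical copy, EIF3CL, which fell and rose with it (-1.29, SE 0.10, in SUM159 KD and 2.13, SE 0.11, in BT549 OE). Reads shared by the copies may have been split between them, so the value of each is uncertain. With the counts of both added no call of the 34 changed. EIF3A fell in SUM159 KD, from 6057 and 6233 to 3524 and 3543 counts (-0.80, SE 0.04), and in BT549 OE, from 1607 and 1526 to 1197 and 1156 (-0.41, SE 0.05, adjusted p = 2.81e-07). The mRNAs of the 2 large core subunits thus moved apart in BT549 OE. With all transcripts counted, the highest over the lowest subunit there went from 54.7 ± 0.63 to 80.3 ± 1.11 times. In SUM159 it went from 9.64 ± 0.03 to 15.6 ± 0.35 times, and in MDA-MB-231 from 7.73 ± 0.47 to 8.47 ± 0.50, less than 2 SD apart.

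EIF3D, the subunit that can bind the mRNA cap, fell in SUM159 KD by -1.11 (SE 0.03, adjusted p = 3.65e-18). In BT549 OE it was at -0.08 (SE 0.04, adjusted p = 0.0445), a call that was lost when any library of BT549 was left out, with adjusted p between 0.061 and 0.14. Among other subunits, EIF3E (-0.63), EIF3H (-0.35), EIF3L (-0.41) and EIF3M (-0.51) fell in SUM159 KD, and EIF3E (0.80), EIF3H (0.72) and EIF3L (0.80) rose in BT549 OE, where EIF3M was at 0.07 (SE 0.04, adjusted p = 0.106). EIF3F rose in all 3 comparisons (0.22, 0.26 and 0.89; SE 0.03, 0.04 and 0.04), although counting its main transcript alone gave 0.18 (adjusted p = 0.12) and 0.16 (adjusted p = 0.12) in the KD lines. EIF3J, a loosely bound subunit, had 2085 and 2319 counts in BT549 EV and 5079 and 5254 in OE (1.23, SE 0.05) and fell in SUM159 KD (-0.33, SE 0.05). EIF3G (-0.12), EIF3I (-0.11) and EIF3K (-0.01) changed least in SUM159 KD. EIF3K was not called, and the calls of the other pair were lost with RLE size factors (-0.06, adjusted p = 0.11, and -0.05, adjusted p = 0.11).

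Of the elongation mRNAs, 7 of 8 fell in SUM159 KD (31.4% of all genes tested did) and 8 of 8 rose in BT549 OE (35.6%). Of the 7, EEF1D and EIF5A depended on the processing, as given below. EEF1A1 had 147959 and 148869 normalized counts in MDA-MB-231 EV and 141386 and 140052 in KD, 109731 and 112145 in SUM159 EV and 89444 and 88306 in KD, and 56441 and 55566 in BT549 EV and 82566 and 81517 in OE. In each line the 2 groups lay apart, and the changes were -0.08 (SE 0.02, adjusted p = 0.00383), -0.32 (SE 0.02, adjusted p = 1.93e-12) and 0.55 (SE 0.02, adjusted p = 3.85e-17). The small fall in MDA-MB-231 was not called without KD replicate 2 (-0.07) or with the main transcript alone (-0.06, adjusted p = 0.598). That transcript, the one with the most counts, was EEF1A1-207, which is annotated with a retained intron. EEF2, the translocase, fell in both KD lines, at -0.24 (SE 0.03, adjusted p = 4.26e-07; 35328 and 33531 counts in EV, 29372 and 29075 in KD) in MDA-MB-231 and at -0.17 (SE 0.03, adjusted p = 9.70e-06) in SUM159, and rose by 0.33 (SE 0.03) in BT549 OE. The exchange factor subunits EEF1B2, EEF1D and EEF1G fell in SUM159 KD (-0.29, -0.11 and -0.17) and rose in BT549 OE (0.51, 0.44 and 0.58). The call of EEF1D in SUM159 KD was lost with RLE factors (-0.06, adjusted p = 0.199), with DESeq2 (adjusted p = 0.196), with protein-coding transcripts alone (adjusted p = 0.0802), and without EV replicate 2 (adjusted p = 0.0808) or KD replicate 2 (-0.05, adjusted p = 0.340). In MDA-MB-231 KD they were at 0.02 (adjusted p = 0.732), 0.12 (adjusted p = 0.0174) and 0.07 (adjusted p = 0.0278), and the last turned to -0.03 (adjusted p = 0.39) under scaling by library size alone.

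EIF5A, the hypusine-carrying factor, showed the largest step among the abundant mRNAs. It had 47163 and 46506 counts in BT549 EV and 124833 and 121418 in OE, while the other 8 libraries lay between 44530 and 66662. The OE pair stood above every other library, at a log2 fold change of 1.39 (SE 0.02, adjusted p = 2.93e-23), and EIF5A made up 21.1 ± 0.10% of the summed TPM of the 34 in EV and 34.1 ± 0.06% in OE. In SUM159 KD it fell by 0.14 (SE 0.02, adjusted p = 3.87e-05). Its main transcript, EIF5A-202, counted alone gave a rise of 0.12 (adjusted p = 0.0042), so the direction there depends on the transcripts counted. EIF5A-202 held 70.2 ± 0.04% of the EIF5A counts in SUM159 EV and 83.2 ± 0.24% in KD. EIF5A-207 held 23.1 ± 0.37% and 12.25 ± 0.14%. In the other groups the share of EIF5A-202 lay between 70.8% and 72.5%. EEF2K, which restrains eEF2, rose in MDA-MB-231 KD, from 341 and 350 to 451 and 462 counts (0.40, SE 0.08, adjusted p = 0.000402), and in BT549 OE, from 394 and 395 to 721 and 740 (0.89, SE 0.08), and was at -0.10 (SE 0.07, adjusted p = 0.252) in SUM159 KD.

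EEF1A2, the paralogue of EEF1A1 that is typical of muscle and nerve, had the largest fold change of the 34 in each comparison, and low counts. Its normalized counts were 455 and 400 in MDA-MB-231 EV and 610 and 668 in KD, 1599 and 1619 in SUM159 EV and 588 and 597 in KD, and 8 and 2 in BT549 EV and 496 and 418 in OE. It was thus nearly absent from the BT549 control and present in OE. It fell in SUM159 KD by -1.44 (SE 0.08, adjusted p = 1.25e-13) and rose in BT549 OE, where 817 counts in the 2 OE libraries against 9 in the EV libraries give a ratio of 92.3 (exact 95% interval 48.4 to 202, counting error only; fitted log2 fold change 6.49). EEF1A2 made up 1.57 ± 0.01% of the TPM of the pair EEF1A1 and EEF1A2 in SUM159 EV and 0.73 ± 0.02% in KD, and 0.02 ± 0.02% in BT549 EV and 0.61 ± 0.08% in OE. In MDA-MB-231 KD it rose by 0.58 (SE 0.09, adjusted p = 1.51e-05). A transcript annotated as non-stop decay, EEF1A2-202, held 48.1 ± 3.29% of its counts in EV and 65.7 ± 1.25% in KD; with protein-coding transcripts alone the value was -0.27 (adjusted p = 0.31).

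**Figure D4:**
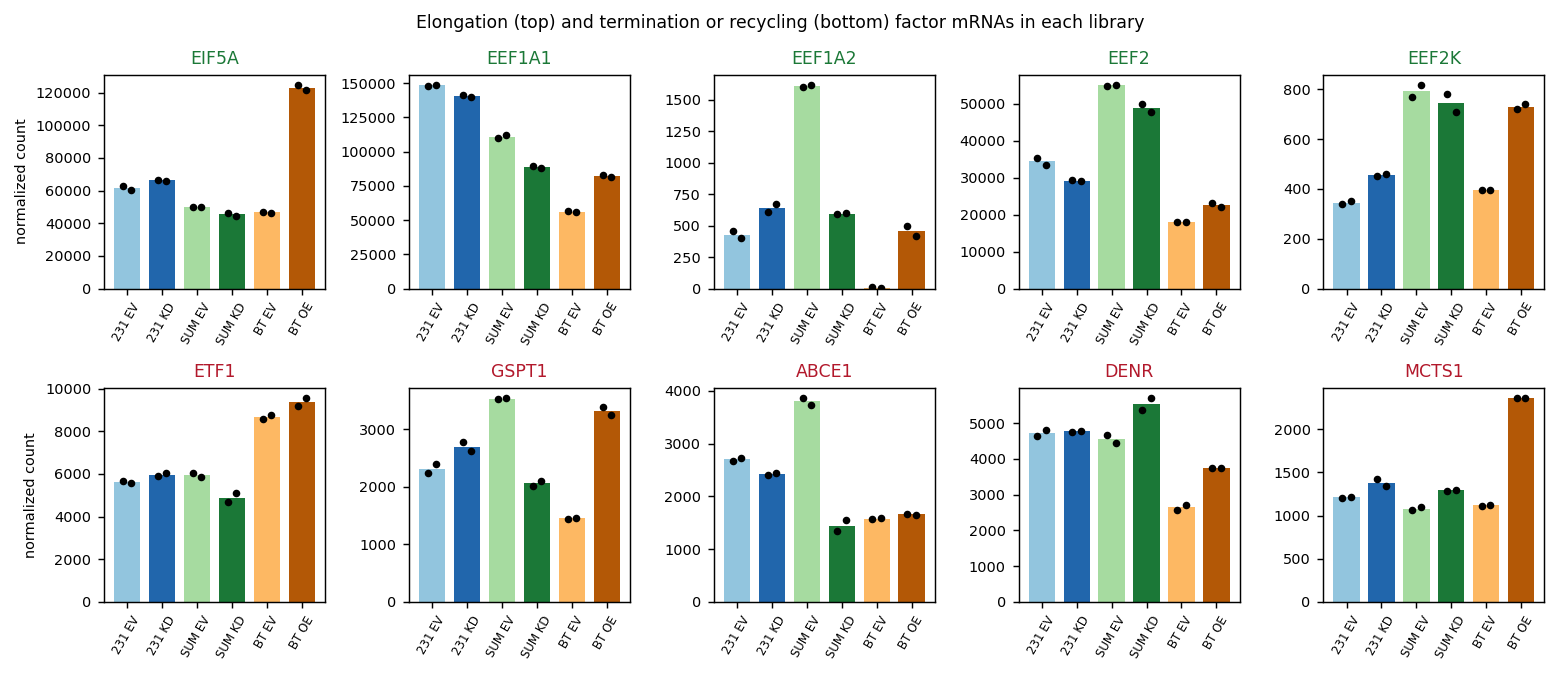
Normalized counts of 5 elongation and 5 termination or recycling mRNAs, each panel on its own axis from 0; bars are group means and dots the 2 libraries, with 231, SUM and BT for MDA-MB-231, SUM159 and BT549. EIF5A (121418 and 124833) and MCTS1 (2358 and 2363) are highest in BT549 OE, and ABCE1 drops from 3863 and 3738 to 1348 and 1542 in SUM159 KD.

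The termination and recycling factors did not move as a unit. ETF1, the release factor whose methylation needs TRMT112, had 5663 and 5551 counts in MDA-MB-231 EV and 5892 and 6038 in KD, 6042 and 5878 in SUM159 EV and 4661 and 5117 in KD, and 8594 and 8754 in BT549 EV and 9188 and 9560 in OE. The groups lay apart in each line, but the differences were small: 0.09 in MDA-MB-231 KD (SE 0.04, adjusted p = 0.0645, not called), -0.28 in SUM159 KD (SE 0.04, adjusted p = 6.09e-07) and 0.11 in BT549 OE (SE 0.04, adjusted p = 0.00843). The MDA-MB-231 value was called with RLE size factors (0.11, adjusted p = 0.021) and with DESeq2 (0.11, adjusted p = 0.0134). It was also called with no filter (0.10, adjusted p = 0.0167) and with the line fitted alone (0.08, adjusted p = 0.0413). The same held without either SUM159 KD library (0.09 each). With library size alone the MDA-MB-231 value was -0.00084. The BT549 call was lost without EV replicate 1 (0.09) or OE replicate 2 (0.08). GSPT1, the GTPase eRF3, moved further. It fell in SUM159 KD from 3517 and 3538 to 2016 and 2103 counts (-0.78, SE 0.04, adjusted p = 2.20e-13) and rose in BT549 OE from 1439 and 1454 to 3384 and 3246 (1.20, SE 0.05, adjusted p = 1.20e-16) and in MDA-MB-231 KD (0.22, SE 0.04, adjusted p = 0.00029). Per length, ETF1 over GSPT1 therefore went from 1.51 ± 0.03 to 2.08 ± 0.02 in SUM159 KD and from 5.04 ± 0.21 to 2.33 ± 0.14 in BT549 OE, and in MDA-MB-231 from 2.28 ± 0.20 to 2.13 ± 0.13, within the spread of the libraries.

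ABCE1, the ATPase that splits terminated ribosomes, fell in SUM159 KD from 3863 and 3738 to 1348 and 1542 counts (-1.39, SE 0.05, adjusted p = 3.31e-17). In MDA-MB-231 KD it was at -0.15 (SE 0.05, adjusted p = 0.0126), a call lost without EV replicate 2 or KD replicate 1 in turn. That call was also lost with the main transcript alone (-0.18, adjusted p = 0.0507). In BT549 OE ABCE1 was at 0.07 (SE 0.05, adjusted p = 0.221). DENR and MCTS1, which act as a dimer, rose in SUM159 KD, opposite to the other 3 factors of the class: DENR from 4672 and 4440 to 5373 and 5706 counts (0.28, SE 0.04, adjusted p = 5.51e-07) and MCTS1 from 1060 and 1101 to 1288 and 1295 (0.26, SE 0.05, adjusted p = 0.000136). Both rose in BT549 OE, by 0.50 (SE 0.04) and 1.08 (SE 0.05). MCTS1 also rose in MDA-MB-231 KD (0.19, SE 0.05, adjusted p = 0.00376), where DENR was at 0.02 (adjusted p = 0.792). The poly(A)-binding proteins PABPC1 and PABPC4 fell in SUM159 KD (-0.29, SE 0.03, and -0.22, SE 0.04) and rose in BT549 OE (0.84, SE 0.03, and 0.32, SE 0.04), and PABPC1 alone fell in MDA-MB-231 KD (-0.22, SE 0.03, adjusted p = 1.26e-06; PABPC4 -0.02, adjusted p = 0.773).

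Across the lines, 19 of the 34 fell in SUM159 KD and rose in BT549 OE, a pattern that 11.0% of all genes tested showed, and 0 of the 34 did the reverse (10.2% of all genes); these contrasts share no library. The 19 were EIF5B, 7 eIF3 subunits, 7 elongation factors, ETF1, GSPT1, PABPC1 and PABPC4. Of these, the SUM159 calls of EIF3G, EIF3I and EEF1D were lost under some alternatives, that of EIF5A turned to a rise with its main transcript alone, and the BT549 call of ETF1 was lost without 1 library. In both KD lines 7 fell (7.47% of all genes), namely EIF1, EIF5B, EIF3C, EEF1A1, EEF2, ABCE1 and PABPC1, and 5 of these rose in BT549 OE as well (2.99%). EIF3F, EIF6 and MCTS1 rose in both KD lines (8.86%) and in OE (3.86%). The remaining calls in both KD lines were opposed, with 8 genes higher in MDA-MB-231 and lower in SUM159 (7.37%) and EIF1B the other way round (4.87%). The calls in MDA-MB-231 are the less firm side of these counts: of the 7, those of EIF5B, EIF3C, EEF1A1 and ABCE1 were each lost under at least 1 alternative, as were those of EIF3F, EIF6 and MCTS1 and, of the 8, all but EIF3B and GSPT1.

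The difference between the KD lines was tested in the same model. The KD effect in SUM159 was lower than that in MDA-MB-231 for 23 of the 34, higher for 3 and not different by the test for 8 (50.9% of all genes were called, 27.7% lower and 23.2% higher). It was lower for 10 of 13 eIF3 subunits, 7 of 8 elongation factors and 3 of 5 termination factors. EEF1A2 (-2.02, SE 0.12), EIF3B (-1.74, SE 0.04), ABCE1 (-1.24, SE 0.07) and EIF3D (-1.14, SE 0.05) differed most, and EIF1B (0.56, SE 0.08), EIF1AX (0.50, SE 0.06) and DENR (0.27, SE 0.05) were the 3 with a higher effect in SUM159. The fall of TRMT112 itself was smaller in SUM159, by 0.47 (SE 0.06).

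Of the 34, 10 are 5′TOP mRNAs by general knowledge: EEF1A1, EEF1A2, EEF1B2, EEF1D, EEF1G, EEF2, PABPC1, EIF3E, EIF3F and EIF3H. In SUM159 KD 9 of them fell and 1 rose, with a median of -0.29, while the other 24 had a median of -0.25. The 80 cytosolic ribosomal protein mRNAs, a class known for 5′TOP starts, went the other way: 55 rose and 11 fell, with a median of 0.24. In BT549 OE the directions were alike, with 10 of 10 higher (median 0.65) and 65 of 80 ribosomal protein mRNAs higher and 9 lower (median 0.46). In MDA-MB-231 KD 4 of the 10 rose and 3 fell (median 0.02), against 48 and 13 of the 80 (median 0.11). All-gene shares were 31.4% lower and 28.6% higher in SUM159 KD, and 35.6% higher and 35.0% lower in BT549 OE. For MDA-MB-231 KD they were 21.2% higher and 16.5% lower. The list and the start check differ. EEF1G has no run at its annotated start, EEF1A2, EEF1D, PABPC1, EIF3E and EIF3H have no entry, and EIF3D, EIF3K and EIF3M have a run but are not listed. Divided by the run, the 7 genes shown above had medians of 0.03, -0.29 and 0.46 in the 3 comparisons and the 18 without it 0.05, -0.16 and 0.58. In BT549 OE 5 of the 7 rose and 1 fell, and 14 of the 18 rose and 2 fell. In SUM159 KD 1 of the 7 rose and 5 fell, and 5 of the 18 rose and 12 fell.

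The make-up of the counts differed between the genes. For 26 of the 34, more than 90% of the counts were on protein-coding transcripts. The exceptions were EIF3L (29.4%), EIF3F (39.6%), EEF1A2 (40.9%), EEF1A1 (64.9%), EIF3M (65.8%), EIF1 (74.8%), EIF3E (77.2%) and EIF5 (85.4%), in which transcripts annotated as retaining an intron, or as targets of nonsense-mediated or non-stop decay, took most of the rest. In EEF1A1, a transcript annotated with a retained intron, EEF1A1-207, took 34.1% of the counts; it is 1825 bases long, close to the 1842 of the coding transcript EEF1A1-220. Estimated counts divide shared reads between such transcripts. The coding share of EEF1A1 lay between 63.6% and 66.7% as a mean of the 6 groups. The coding share of EIF3M was 67.7 ± 0.42% in SUM159 EV and 72.4 ± 2.42% in KD, and that of EIF3E 75.9 ± 3.61% and 85.7 ± 2.93%.

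Other genes of the pathway were counted from lists of enzymes that modify these factors, of ribosome rescue and recycling factors, and of partners of the poly(A)-binding proteins. All-gene shares for the counts that follow were 21.2% higher and 16.5% lower in MDA-MB-231 KD, 28.6% and 31.4% in SUM159 KD, and 35.6% and 35.0% in BT549 OE. Of these lists and of near-identical copies, 35 of 38 genes passed the filter. Of 20 modifying enzymes and partners, 2 rose and 8 fell in MDA-MB-231 KD, 6 and 7 in SUM159 KD, and 11 and 5 in BT549 OE. This list holds TRMT112 itself, the gene depleted or added, which gives 1 of the calls in each comparison. EEF2KMT, the methyltransferase of eEF2, rose in BT549 OE by 2.05 (SE 0.07) and fell in both KD lines, at -0.27 (SE 0.08, adjusted p = 0.0101) and -0.23 (SE 0.06, adjusted p = 0.00228). N6AMT1, the eRF1 methyltransferase, was at 0.08 (adjusted p = 0.609), 0.25 (adjusted p = 0.0393) and 0.49 (SE 0.11). Of 5 rescue and recycling factors tested, 4 fell in BT549 OE and 0 rose, opposite to GSPT1, DENR and MCTS1, 3 fell and 0 rose in SUM159 KD, and 3 rose and 1 fell in MDA-MB-231 KD. GTPBP1, a GTPase of this group, fell by 1.12 (SE 0.05) in SUM159 KD. Of 6 partners of poly(A)-binding proteins, 4 fell in SUM159 KD and 0 rose, in BT549 OE 2 rose and 3 fell, and in MDA-MB-231 KD 3 rose and 0 fell. The 4 near copies tested gave 0 higher and 1 lower in MDA-MB-231 KD, 1 and 1 in SUM159 KD and 3 and 1 in BT549 OE. Of these PABPC1L, a relative of PABPC1, fell in MDA-MB-231 KD (-1.17, SE 0.26), and PABPC4L was higher in SUM159 KD at 5 and 11 raw counts against 1 and 3 (1.82, SE 0.73, adjusted p = 0.0364). PAIP2B, a partner that restrains poly(A)-binding protein, had 6 and 2 raw counts in BT549 EV, 1279 and 1274 in MDA-MB-231 EV and 187 and 161 in SUM159 EV.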

How the data were processed

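Polysomal RNA of 12 libraries had been sequenced. By the study's methods the authors used Trimmomatic to trim, HISAT2 to place reads on GRCh38 and SAMtools to drop duplicates; the counter, annotation and strand setting are not given in the sources used here, and labels and methods name different library kits. The authors deposited expected counts, that is estimated counts per transcript in which shared reads are divided, with no normalization. In 10254 of 201932 rows a value was marked as missing, read here as 0 (4 of 501 transcripts of the 34 genes). Of all rows, 0 lacked counts in every BT549 library. Transcripts without counts in BT549 thus appear to be left out, which may lower gene sums in the other lines. Transcripts were matched to GENCODE 44 (79.6% of rows, 99.25% to 99.41% of counts), summed per symbol and rounded. Libraries were scaled by TMM, genes filtered by filterByExpr over the 6 groups, and contrasts of group means tested across all 12 libraries with edgeR's quasi-likelihood test (edgeR 4.0.16, R 4.3.3) and Benjamini-Hochberg adjustment over 16538 genes; an adjusted p under 0.05 was called. TPM used annotated lengths. The main transcript of a gene was the one with the highest mean count. For EEF1A1, EIF3L and EIF3M it was one annotated with a retained intron, and for EEF1A2 one annotated as non-stop decay. Fits were tested on simulated data. Intervals cover counting error only.

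The genes, classes and lists were chosen with earlier results of these data known. All 34 genes are named; library values are given for the 3 largest called rises and falls of each contrast at a mean of at least 50 counts, for ETF1, EEF1A1 and EEF1A2, and for some others. Of the pathway lists the 2 largest called changes per contrast were to be named; N6AMT1 was added as the ETF1 methyltransferase. Replicate numbers did not pair the libraries (correlations of deviations 0.02, -0.03 and 0.02 over 12581 genes), and replicates differed by more than counting noise (chi-square per degree of freedom 2.14 to 3.00). Alternatives were RLE and library size scaling, DESeq2 1.42.0, a filter at 50 mean counts or none, blocking on the replicate number, fits of single lines, other sets of transcripts, and leaving out each library.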

Additional observations from a re-analysis of the deposited data

Results flagged for a closer look

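For 26 of the 34 genes the KD effect differed between the lines by edgeR's test of the difference itself (50.9% of all genes tested did). Differences are the log2 KD effect in SUM159 minus that in MDA-MB-231. Among initiation factors they were -0.10 for EIF1, 0.50 for EIF1AX, 0.56 for EIF1B and -0.79 for EIF5B. Among eIF3 subunits they were -0.71 for EIF3A, -1.74 for EIF3B, -1.05 for EIF3C, -1.14 for EIF3D, -0.65 for EIF3E, -0.38 for EIF3H, -0.24 for EIF3I, -0.36 for EIF3J, -0.47 for EIF3L and -0.63 for EIF3M. Among elongation factors they were -0.24 for EIF5A, -0.24 for EEF1A1, -2.02 for EEF1A2, -0.31 for EEF1B2, -0.23 for EEF1D, -0.24 for EEF1G and -0.50 for EEF2K. Among termination and recycling factors they were -0.37 for ETF1, -1.00 for GSPT1, -1.24 for ABCE1 and 0.27 for DENR, and PABPC4 was at -0.21. For 23 of these the KD effect was lower in SUM159, several of them being higher in MDA-MB-231 KD, while TRMT112 itself fell less in SUM159. The small value for EIF1 had an adjusted p of 0.0329. The differences for EIF1, EIF3J, EIF3L, EIF5A and EEF1A1 were not called under some alternatives. That for EEF1A1 was lost with the main transcript alone (-0.19, adjusted p = 0.119), which is EEF1A1-207, annotated with a retained intron.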

How the results depend on the processing

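Of 128 fold changes of the 34 genes followed through the alternatives, 101 kept their call and direction in all of them: 7 of 21 in MDA-MB-231 KD, 26 of 32 in SUM159 KD, 29 of 31 in BT549 OE, 21 of 26 for the difference between the KD effects and 6 of 6 in each contrast of control lines. With the replicate block no count moved by over 1.5 times and no call changed, and 12 were higher and 8 lower in MDA-MB-231 KD as before; since the numbers share no more than a label, this is no test of pairing.

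The causes of the shifts below were not tested. With library size alone, 5 were higher and 13 lower in MDA-MB-231 KD, the class medians there became -0.0656 (initiation), -0.00654 (elongation) and -0.00084 (termination), EEF1G went to -0.0250 and ETF1 to -0.00084, 5 had a higher KD effect in SUM159, and 7 were higher in BT549 EV than in MDA-MB-231 EV. With the main transcript alone, 7 were higher and 4 lower in MDA-MB-231 KD (2012 and 1221 of all genes, against 3505 and 2735), the elongation median in BT549 OE was 0.71, EIF5 and EIF5A in SUM159 KD were at 0.0699 and 0.12, and the difference between KD effects was 0.0363 for EIF5A, with 2489 genes higher against 3839. RLE factors gave SUM159 KD medians of -0.30, -0.12 and -0.23, DESeq2 gave -0.30 and -0.12 for initiation and elongation, and DESeq2 and the stricter filter each gave 5 with a higher KD effect in SUM159. Protein-coding transcripts alone gave an elongation median of 0.0236 in MDA-MB-231 KD, an initiation median of -0.30 in SUM159 KD, EEF1A2 at -0.27 in MDA-MB-231 KD and a difference of 0.000215 for EIF1. Leaving out 1 library gave 5 to 8 lower in MDA-MB-231 KD (5 without KD replicate 1), initiation medians of 0.51 to 0.56 in BT549 OE and -0.41 to -0.34 in SUM159 KD, and termination medians of -0.35 to -0.22 in SUM159 KD. A group of 2 libraries limits the estimate of spread, which is shared by all groups here.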

Other observations

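EIF2D, which like DENR and MCTS1 acts on the small subunit after termination, was close to absent from BT549. Its counts were 3 and 2 in BT549 EV and 1 and 1 in OE, while the other 8 libraries held between 1027 and 2163. DENR and MCTS1 were present in BT549 in both groups.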
